A study of Mus musculus with 3 samples.

Results

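In the blastocyst libraries, 57 genes had at least 10 CPM in both NOD libraries and 5 or fewer counts in the B6 library. They were selected on the counts of these same libraries, from 24063 genes in the table, and are 0.789% of the 7228 genes on chromosomes 1 to 19 that reached 10 CPM in both NOD libraries. CPM is the raw count per 1000000 counts in the library, so that 5 counts in B6 stood for 0.400 CPM. The 7 MHC genes that met the same limits (H2-K2, H2-DMa, H2-DMb2, H2-DMb1, H2-Ab1, H2-Aa and H2-T10, all on chromosome 17) were left out by their symbol. Since the difference between the strains chose the 57 genes, it is described here without a test.

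The study asked whether embryos of a diabetes-prone strain differ from those of a resistant one in gene expression before implantation. Low-input RNA-Seq was done on untreated blastocysts, with 1 library from C57BL/6 (B6) and 2 from NOD, the non-obese diabetic strain, which develops autoimmune diabetes. The labels give whole blastocysts as the input, whereas the paper gives single inner cell masses (ICMs) freed by immunosurgery. Neither source gives a sex, an exact embryonic age or a mother for the embryos.

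Counts on genes summed to 12505685 in B6, 33891715 in NOD 1 and 36171013 in NOD 2, so that 1 count was worth 0.0800, 0.0295 and 0.0276 CPM. Of the markers of blastocyst lineages, the summed level of 6 epiblast genes was 425 CPM in B6 and 554 and 755 CPM in NOD 1 and NOD 2. Within that sum, Sox2 (54.3, 5.61 and 9.04 CPM) and Klf2 (49.5, 34.2 and 33.0 CPM) were lower in both NOD libraries than in B6 and the other 4 were higher. The 8 trophectoderm genes summed to 3213, 1662 and 1488 CPM. The 6 primitive endoderm genes summed to 427, 116 and 149 CPM, with Foxa2 at 0 in each library. Of the trophectoderm genes, 6 were lower in both NOD libraries than in B6, Krt7 was at 51.4, 53.9 and 50.8 CPM, and Elf5 was under 0.3 CPM throughout. The lower primitive endoderm sum came from Gata6 (420, 89.2 and 122 CPM), while Pdgfra was at 6.00, 23.0 and 23.1 CPM and Gata4 at 0.560, 2.95 and 3.32 CPM. The part of these differences in the results below was not tested. Of 10 leukocyte markers, Ptprc, Lyz2, Fcer1g, Cd79a and Csf1r were at 0 in each library, and most of the summed level (67.2, 21.6 and 22.7 CPM) came from Laptm5. Coro1a had 1, 10 and 32 counts, Cd3e had 1, 0 and 15, and Tyrobp and Ctss had at most 3 in any library. Summed markers of cumulus and granulosa cells, fibroblasts and erythroid cells stayed under 4 CPM in each library. The 5 oviduct and uterine epithelium markers summed to 72.3, 175 and 215 CPM, mostly from Wfdc2. Muc1 was at 0.560, 8.35 and 2.74 CPM, Ovgp1 and Pax8 were under 0.3 CPM, and Ltf was at 0 throughout. None of the 57 genes is one of these markers.

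A blastocyst holds an inner cell mass, from which embryonic stem cells are derived, and an outer trophectoderm that forms part of the placenta. Genes of the germline are of interest at this stage because many of them have promoters rich in CG dinucleotides that become methylated and silent around implantation. These statements are background and were not tested here.

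The B6 counts of the 57 genes ran from 0 to 5. In B6, 22 genes had 0 counts, 12 had 1, 4 had 2, 8 had 3, 4 had 4 and 7 had 5. The number of genes did not drop at the limit, since a further 12 genes that reached 10 CPM in both NOD libraries had 6 counts in B6. Summed over the 57 genes, B6 had 95 counts (7.60 CPM), NOD 1 had 61522 (1815 CPM) and NOD 2 had 64175 (1774 CPM). In the opposite direction, 40 genes had at least 10 CPM in B6 and no more than 0.400 CPM in either NOD library. When a NOD library took the place of B6, 2 genes were absent in NOD 1 and at 10 CPM or more in B6 and NOD 2, and 0 were absent in NOD 2 and at that level in the other two.

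**Figure D1:**
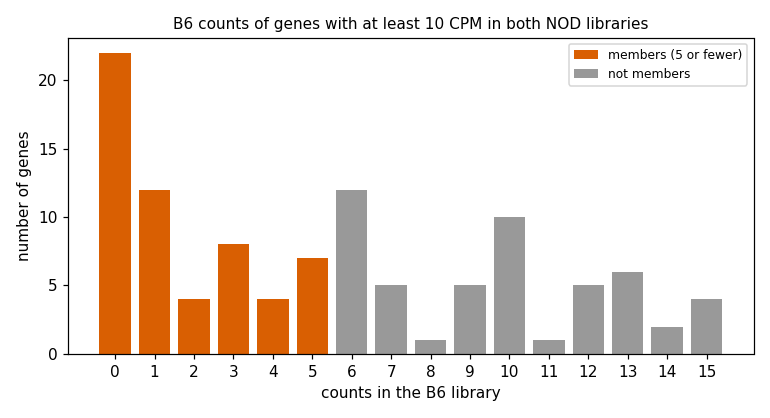
Number of genes (vertical axis) at each raw count in the B6 library (horizontal axis), among genes on chromosomes 1 to 19 with at least 10 CPM in both NOD libraries and without the H2 genes. The 57 members are the orange bars from 0 to 5, of which the bar at 0 holds 22 genes, and the grey bar at 6 holds 12.

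At the limit of the B6 count stood 7 genes with 5 counts inside and 12 with 6 counts outside, and on each side the 3 with the highest mean NOD level are given. Rdh14, a retinol dehydrogenase, had 5 counts in B6 and 23.3 and 26.2 CPM in NOD 1 and NOD 2. St7 had 5 counts and 16.3 and 15.3 CPM, and the zinc finger gene Zfp959 had 5 counts and 12.4 and 15.9 CPM. Just outside the limit, with 6 counts each, were Cd74, the invariant chain of MHC class II (202 and 145 CPM), Pnliprp2, a pancreatic lipase relative (49.3 and 24.9 CPM), and Ifngr1, which encodes the ligand-binding subunit of the receptor for interferon gamma (40.9 and 28.8 CPM). At the limit in NOD, Chrna3, Lmbrd2 and Dclre1a were the nearest inside, with their lower NOD library at 339, 341 and 346 counts (10.002, 10.06 and 10.2 CPM). The nearest outside were 2210408I21Rik at 9.81 CPM in NOD 2, and Plin5 and Tspan15 at 9.80 and 9.77 CPM in NOD 1.

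On the CPM scale, which does not account for length, the 57 genes were low among the genes read in NOD. Their median over the mean of the NOD libraries was 20.6 CPM, against 56.7 CPM for the other 7171 genes that reached 10 CPM in both. Of genes between 10 and 20 CPM in NOD, 2.55% were members (28 of 1099). This share was 0.763% between 20 and 50 CPM, 0.644% between 50 and 100 CPM and 0.0857% above 100 CPM (2 of 2334). A gene that is low in NOD needs a smaller drop to reach 5 counts in B6, so the share at each level follows in part from the rule. The median transcript length was 2192 bases in the members and 2609 in the others, and 53 of the 57 are protein-coding.

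**Figure D2:**
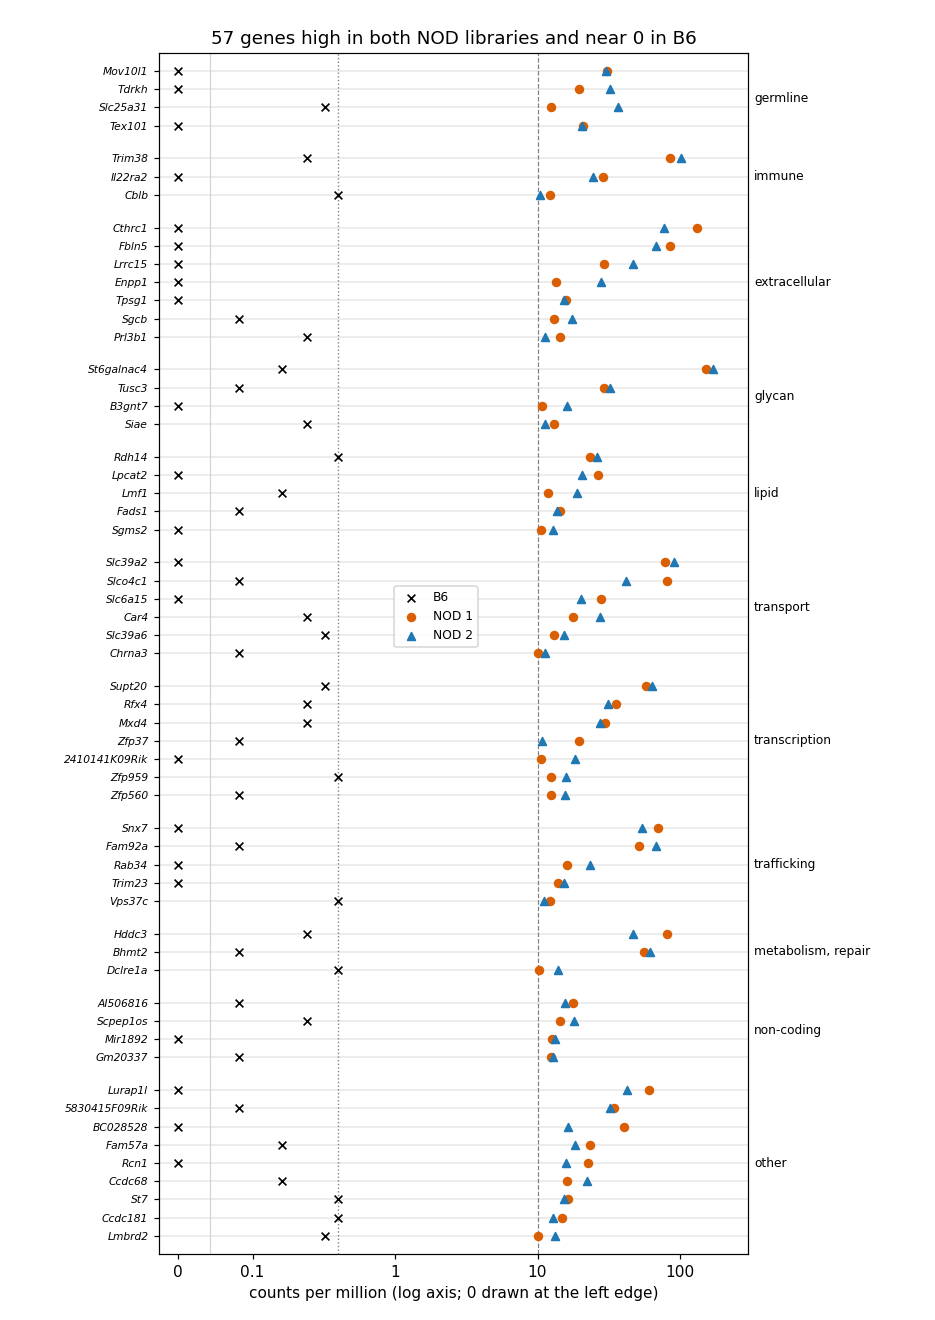
CPM (log axis, with 0 drawn at the left edge) of each of the 57 genes in B6 (black crosses), NOD 1 (orange circles) and NOD 2 (blue triangles), 1 point per library, grouped by function. The dashed line at 10 CPM and the dotted line at 5 counts in B6 are the limits of the rule, and St6galnac4, at 153 and 171 CPM, lies farthest to the right.

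The functional groups described next were assigned after the values had been seen, and a gene was placed in 1 group only. Of the 57 genes, 48 fell into 10 groups. Ratios of the NOD mean to B6 are given with an exact 95% interval where B6 had 1 to 5 counts. For genes at 0 in B6 the ratio is a lower bound, set against a floor of 3 counts (0.240 CPM). Both cover counting error only, because amplified reads without molecular identifiers are not independent molecules. In these bulk libraries, fewer cells that express a gene and less of its RNA per cell cannot be told apart.

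The germline group held 4 genes that are best known from testis. Mov10l1, an RNA helicase needed to make piRNAs (small RNAs that silence transposons), had 0 counts in B6 and 1044 and 1085 counts in NOD 1 and NOD 2, or 30.8 and 30.0 CPM. The NOD mean was at least 126.7-fold higher than B6. Tdrkh, a tudor protein that serves in piRNA trimming, had 0 counts in B6 and 19.4 and 32.4 CPM in NOD, a difference of at least 108.0-fold. Tex101, a glycoprotein of germ cells and sperm, had 0 counts and 20.8 and 20.3 CPM. Slc25a31, the germline ADP/ATP carrier of mitochondria, had 4 counts in B6 and 12.4 and 36.6 CPM, the largest difference between NOD libraries of any member. Their summed level was 0.320 CPM in B6, 83.5 CPM in NOD 1 and 119 CPM in NOD 2.

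The 250 bases upstream of the RefSeq start are shown for 3 of these genes, because many germline promoters are rich in CG. They are the RefSeq sequences of GRCm38.p6 (mm10), 5′ to 3′ on the strand of the gene, with each CG in capitals. The stretch is chr15:88982744-88982993, plus strand, for Mov10l1, chr3:40708621-40708870, plus strand, for Slc25a31 and chr3:94412994-94413243, plus strand, for Tdrkh. For Tdrkh the RefSeq start lies 74 bases upstream of the start in the count table. It holds 19 CG in Mov10l1, 18 in Slc25a31 and 19 in Tdrkh, and Mov10l1 and Slc25a31 each hold 1 copy of the E-box CACGTG.
Mov10l1: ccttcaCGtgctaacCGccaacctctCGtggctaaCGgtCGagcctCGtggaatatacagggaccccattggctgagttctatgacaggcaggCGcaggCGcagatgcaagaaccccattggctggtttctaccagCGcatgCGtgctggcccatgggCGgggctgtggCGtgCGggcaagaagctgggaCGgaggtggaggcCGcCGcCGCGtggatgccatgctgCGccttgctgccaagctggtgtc
Slc25a31: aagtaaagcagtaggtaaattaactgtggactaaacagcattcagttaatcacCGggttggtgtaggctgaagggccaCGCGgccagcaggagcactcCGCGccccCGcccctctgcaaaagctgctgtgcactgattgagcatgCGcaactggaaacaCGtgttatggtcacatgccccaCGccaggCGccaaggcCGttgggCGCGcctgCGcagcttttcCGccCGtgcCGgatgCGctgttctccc
Tdrkh: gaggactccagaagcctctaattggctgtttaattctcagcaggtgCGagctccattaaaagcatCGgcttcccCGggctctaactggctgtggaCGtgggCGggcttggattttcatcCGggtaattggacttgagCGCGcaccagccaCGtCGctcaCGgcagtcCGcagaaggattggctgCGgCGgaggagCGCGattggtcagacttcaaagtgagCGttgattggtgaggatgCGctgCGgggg

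Other genes of the piRNA pathway had a range of levels in B6. Ddx4, the germ cell helicase Vasa, missed the limit by 1 count, with 6 counts in B6 and 939 and 942 in NOD (adjusted p = 0.0203 from edgeR's quasi-likelihood test). Mael rose from 63 counts in B6 to 1781 and 3896 in NOD (5.04 CPM against 52.5 and 108 CPM, adjusted p = 0.0290 from edgeR). Asz1 had 50.7 CPM in B6 and 94.5 and 131 CPM in NOD and did not pass (adjusted p = 0.0686 from edgeR). Piwil2, a PIWI protein, had 59.3 CPM in B6 and 46.8 and 49.0 CPM in NOD, and Pld6 had 6.08 CPM in B6 and 3.22 and 2.71 CPM in NOD. Piwil1 (4, 0 and 40 counts) and Piwil4 (0, 0 and 27 counts) were near 0 in B6 and NOD 1, and Tdrd1 was at 0 in each library. Of the paralogs, Mov10 had 22.9 CPM in B6 and 12.7 and 14.5 CPM in NOD, and the widely expressed ADP/ATP carriers Slc25a4 and Slc25a5 had 672 and 356 CPM in B6.

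The immune group held Trim38, Il22ra2 and Cblb. Trim38, a ubiquitin ligase that restrains innate immune signalling, was the third highest member in mean CPM, with 3 counts in B6 (0.240 CPM) and 84.7 and 102 CPM in NOD, and its ratio to B6 was 389.8 (interval 133.7 to 1897). Il22ra2 (chr10:19622028-19634681), a soluble receptor that binds and blocks interleukin 22, had 0 counts in B6 and 970 and 879 in NOD (28.6 and 24.3 CPM), at least 110.3-fold higher. Cblb, a ubiquitin ligase that limits T cell activation, was lower, at 12.3 and 10.4 CPM in NOD against 5 counts in B6. The ligand gene Il22 had 1 count in B6 and 0 in NOD, and the signalling receptor Il22ra1 was at 0 in each library. Its partner chain Il10rb had 10 counts in B6 and 393 and 839 in NOD (adjusted p = 0.0350 from edgeR). The receptor that Il22ra2 competes with was therefore counted for 1 of its 2 chains only.

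Trim38 had few CG upstream, and its 250 bases (chr13:23782291-23782540, plus strand) are shown in the same form as a contrast with the germline genes, with 1 CG.
Trim38: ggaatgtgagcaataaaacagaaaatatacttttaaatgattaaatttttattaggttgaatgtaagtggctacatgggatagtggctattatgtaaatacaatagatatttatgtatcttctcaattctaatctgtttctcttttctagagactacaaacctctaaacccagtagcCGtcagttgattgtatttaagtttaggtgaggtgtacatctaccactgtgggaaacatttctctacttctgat

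The extracellular group held 7 genes of matrix, secretion and the cell surface, 5 of them at 0 in B6. Cthrc1 (chr15:39076932-39087119), a secreted collagen triple helix protein, had 0 counts in B6 and 4452 and 2778 in NOD. Its 131 and 76.8 CPM place its mean second among the members on that scale (below St6galnac4, Trim38 and Slc39a2 in NOD 2), and the bound on its ratio is 433.9-fold. Fbln5, an elastic fibre protein, had 0 counts in B6 and 84.9 and 67.3 CPM in NOD, and Lrrc15, a leucine-rich repeat membrane protein, had 0 and 29.2 and 47.1 CPM. Enpp1, which makes pyrophosphate outside the cell, had 0 counts in B6 and 13.5 and 27.8 CPM, and its NOD libraries differed 2.06-fold. Tpsg1, a mast cell tryptase anchored in the membrane, had 0 counts and 15.8 and 15.2 CPM. Sgcb, a sarcoglycan, and Prl3b1, a placental lactogen, had 1 and 3 counts in B6 and means of 15.2 and 12.8 CPM in NOD. Of the relatives of Fbln5, Fbln1 had 35.9 CPM in B6 and 6.73 and 10.9 CPM in NOD, and Fbln2 had 2.72 CPM in B6 and 1.98 and 1.08 CPM in NOD.

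The glycan group held 4 genes, with the highest member in CPM in both NOD libraries, a scale that does not account for length. St6galnac4 (NM_011373, chr2:32587078-32599696), which adds sialic acid to O-linked sugars, had 2 counts in B6 and 5195 and 6194 in NOD, or 0.160 CPM against 153 and 171 CPM. Its ratio was 1015 (interval 281 to 8394). Siae, which removes acetyl groups from sialic acid, had 3 counts in B6 and 13.1 and 11.4 CPM in NOD. Tusc3, a subunit of an oligosaccharyltransferase, had 1 count and 29.0 and 32.0 CPM, and B3gnt7, which extends keratan sulphate chains, had 0 counts in B6 and 365 and 578 in NOD. Magt1, the paralog of Tusc3, was present in B6 at 80.2 CPM and in NOD at 106 and 143 CPM.

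The lipid group held 5 genes at 11.7 to 24.7 CPM in the NOD mean. Fads1, the delta-5 desaturase of polyunsaturated fatty acids, had 1 count in B6 and 14.5 and 13.6 CPM in NOD, so that its ratio to B6 was 175.6 (31.4 to 6937). Lmf1, needed for the maturation of lipases, had 2 counts in B6 and 11.8 and 18.9 CPM. Lpcat2, which acylates lysophosphatidylcholine, and Sgms2, a sphingomyelin synthase, were at 0 in B6. Related enzymes were present in B6, with Lpcat3 at 528 CPM and Sgms1 at 52.8 CPM. Fads2, the delta-6 desaturase beside Fads1, was at 0 in B6 and at 0.354 and 2.76 CPM in NOD.

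The transport group held 6 genes. Slc39a2 (chr14:51893610-51896745), a zinc importer, had 0 counts in B6 and 2650 and 3283 in NOD (78.2 and 90.8 CPM), at least 352.1-fold higher. Slco4c1, an organic anion transporter, had 1 count in B6 and 80.8 and 42.1 CPM in NOD, and NOD 1 lay 1.92-fold above NOD 2. Its ratio to B6 was 767.9 (136.3 to 30026). Slc6a15, a carrier of neutral amino acids, had 0 counts and 28.1 and 20.3 CPM. Slc39a6, a second zinc importer, had 4 counts in B6 and 13.0 and 15.3 CPM. Car4, a carbonic anhydrase on the cell surface, had 3 counts and 17.7 and 27.5 CPM, and Chrna3, a nicotinic acetylcholine receptor subunit, had 1 count in B6 and 339 and 408 in NOD. None of these levels overlapped between B6 and NOD, which the rule required.

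Of the 9 other Slc39a genes tested, 1 was called higher in NOD (Slc39a10), 3 were called lower (Slc39a4, Slc39a13 and Slc39a14) and 5 were not called, beside 10.3% of all genes called higher and 7.39% lower. The upstream stretch of Slc39a2 (chr14:51893360-51893609, plus strand) had 3 CG and is the other CG-poor example shown, with each CG in capitals.
Slc39a2: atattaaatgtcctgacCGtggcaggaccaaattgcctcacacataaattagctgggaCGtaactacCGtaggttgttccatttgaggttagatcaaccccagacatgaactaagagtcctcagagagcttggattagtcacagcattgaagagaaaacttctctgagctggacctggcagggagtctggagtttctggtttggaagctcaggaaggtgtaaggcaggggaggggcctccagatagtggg

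Of the 7 transcription genes, Supt20, a subunit of the SAGA coactivator complex, was the highest in CPM, with 4 counts in B6 and 57.2 and 64.1 CPM in NOD, so that its ratio to B6 was 189.7 (74.2 to 697.7). Other SAGA subunits were present in B6, with Tada1 at 84.6 CPM, Supt7l at 32.7 CPM, Taf5l at 26.2 CPM and Supt3 at 15.3 CPM. Rfx4, a regulatory factor X protein, had 3 counts in B6 and 35.6 and 31.2 CPM in NOD. Mxd4, a dimer partner of Max, had 3 counts and 29.7 and 27.5 CPM. Of the zinc finger genes, Zfp37 had 19.4 and 10.7 CPM in NOD (1 count in B6). Zfp560 had 12.4 and 15.6 CPM (1 count), and 2410141K09Rik had 10.6 and 18.3 CPM (0 counts). Zfp37 was 1.82-fold higher in NOD 1 and 2410141K09Rik 1.72-fold higher in NOD 2.

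The trafficking group held Snx7, a sorting nexin, with 0 counts in B6 and 69.8 and 53.8 CPM in NOD. Fam92a, a BAR domain protein that acts at cilia, had 1 count and 51.5 and 67.7 CPM. Rab34, Trim23 and Vps37c had NOD means of 19.6, 14.5 and 11.6 CPM. For Vps37c, an ESCRT-I subunit, the values were 5 counts in B6 and 12.2 and 11.1 CPM in NOD, whereas its paralog Vps37a was present in B6 at 51.4 CPM. In the metabolism and repair group, Hddc3, a nucleotide hydrolase, had 3 counts in B6 and 80.6 and 46.9 CPM, and Bhmt2, which remethylates homocysteine, had 1 count and 56.2 and 61.6 CPM. The ratio was 265.9 (90.2 to 1279) for Hddc3 and 736.6 (132.3 to 29145) for Bhmt2. Dclre1a, a nuclease of cross-link repair, had 5 counts in B6 and 10.2 and 13.9 CPM.

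The 9 genes in no group include Lurap1l, with 0 counts in B6 and 60.9 and 42.2 CPM in NOD, and 5830415F09Rik, named Trmo in RefSeq, with 1 count and 34.6 and 32.5 CPM. BC028528 had 0 counts in B6 and 40.2 and 16.3 CPM. Rcn1, an endoplasmic reticulum calcium-binding protein, had 0 counts in B6 and a NOD mean of 19.3 CPM. The others (Ccdc181, Fam57a, St7, Lmbrd2 and Ccdc68) had NOD means of 11.6 to 20.8 CPM. Of 13 members for which a paralog had been listed, 12 had at least 1 such paralog at 10 CPM or more in B6, and the exception was Fads1. The list was made after values were seen. It leaves out other relatives, among them St6galnac6 and Enpp3 (0 and 3 counts in B6) and Zfp317 (619 counts). Of all genes tested, 58.5% reached 10 CPM in B6, and a member with several listed paralogs had more than 1 way to qualify.

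Levels of different genes can be compared only per length. On the FPKM scale (CPM divided by the listed gene length in kilobases), Mir1892 had the highest level, at 159 in NOD 1 and 167 in NOD 2, on a listed length of 79 bases. Cthrc1 followed at 113 and 66.3 FPKM, then Hddc3 at 94.4 and 55.0, BC028528 at 91.1 and 37.0, and Trim38 at 57.5 and 69.5 FPKM. St6galnac4, first in CPM, was the seventh per length, at 38.4 and 43.0 FPKM, and the lowest were Sgms2 in NOD 1 at 1.83 FPKM and Cblb in NOD 2 at 1.65 FPKM. The ranges of Cthrc1, Hddc3, BC028528 and Trim38 over the NOD libraries overlapped, so their order is not resolved.

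Some of the highest levels per length rest on reads that another gene can supply. Mir1892 (chr12:54645933-54646012) lies within Sptssa on the same strand, and 100% of its 50-base words occur in Sptssa transcripts. It had 0 counts in B6 and 426 and 476 in NOD, while Sptssa had 895 counts in B6 and 6785 and 7330 in NOD. The library kit copies polyadenylated RNA, and reads of 50 bases are longer than the mature microRNA, so the counts are not a measure of it. The mature miR-1892 is given to show this difference in size, from RefSeq (GRCm38.p6, chr12:54645943-54645964, minus strand) with its seed, bases 2 to 8, in capitals.
miR-1892: aUUUGGGGacgggagggaggau

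Hddc3 shared 69.9% of its words with Gm18310, and was the only other member above 50%. In 2410141K09Rik the share was 31.4%, in BC028528 it was 29.9% (with C920021L13Rik) and in Zfp959 it was 21.3%. In 38 of the 57 genes no word occurred in another gene. Scpep1os, a non-coding RNA, overlaps Scpep1 on the opposite strand, and counts were made on both strands together. Scpep1os had 3 counts in B6 and 489 and 655 in NOD, and Scpep1 had 1004 in B6 and 8041 and 10348 in NOD (adjusted p = 0.0261 from edgeR). Reads on the stretch where both genes lie cannot be told apart, and 10.9% of the words of Scpep1os occurred in another gene. C920021L13Rik, which overlaps BC028528 on the opposite strand, moved with it, at 0 counts in B6 and 758 and 334 in NOD. Tpsg1 overlaps the end of Cacna1h, which had 0 counts in B6 and 84 and 120 in NOD. Of the remaining non-coding members, AI506816 had 1 count in B6 and Gm20337 had 1, with means of 16.6 and 12.6 CPM in NOD.

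The NOD libraries gave similar values for most members. NOD 1 was higher for 27 genes and NOD 2 for 30. The median absolute log2 ratio between NOD 1 and NOD 2 was 0.33 for the members and 0.28 for the other 7171 genes at this level. More than a 2-fold difference was found for 3 members (5.26%) and for 4.02% of the others. These were Slc25a31 (2.95-fold higher in NOD 2), BC028528 (2.46-fold higher in NOD 1) and Enpp1 (2.06-fold higher in NOD 2), followed by Slco4c1 and Zfp37. With 1 library, the spread within B6 is unknown.

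**Figure D3:**
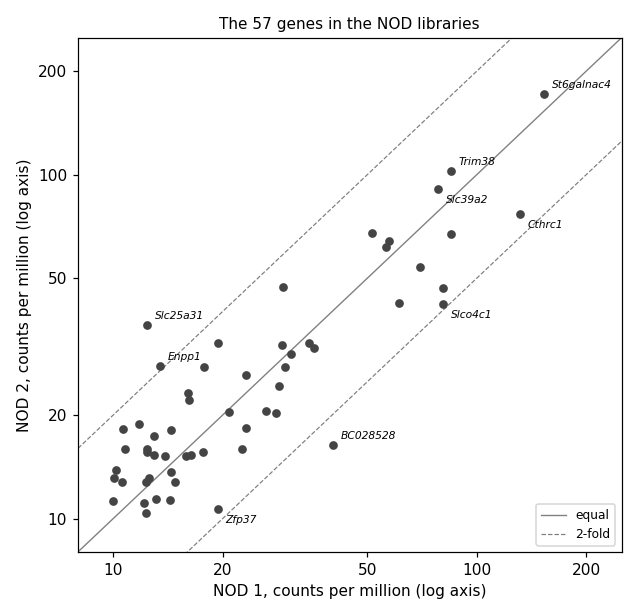
CPM of the 57 genes in NOD 1 (horizontal, log axis) and NOD 2 (vertical, log axis), 1 point per gene, with lines at equal and 2-fold different levels. Slc25a31, Enpp1 and BC028528 lie outside the 2-fold lines, and St6galnac4 is the point at the upper right.

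The members were spread over all 19 chromosomes. Chromosome 3 held 6, which is 1.74% of its 345 genes at 10 CPM or more in both NOD libraries, and chromosome 13 held 5 of 274 (1.82%). Chromosomes 6 and 14 held 1 each (0.303% and 0.405%), and chromosome 17, with 7 H2 genes left out, held 3 of 356 (0.843%). The median distance from a member to the nearest other on its chromosome was 17.3 Mb between gene starts. No member was next to another in gene order, and none had another within 200 kb. Within 1 Mb there were 4 members in 2 pairs, and within 5 Mb there were 12.

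The closest pair was Tpsg1 (chr17:25370553-25374442) and Lmf1 (chr17:25579174-25662826), whose starts are 208.6 kb apart with 4 genes between. None of these 4 reached 10 CPM in both NOD libraries. The other pair was Fads1 (chr19:10182888-10196872) and Vps37c (chr19:10688815-10714419), 505.9 kb apart with 17 genes between, of which 7 reached 10 CPM in both NOD libraries. Of the 14 tested genes between them, 1 was called higher and 2 lower in NOD. Pairs between 1 and 2 Mb apart were Tdrkh with BC028528 on chromosome 3 and Fam57a with Rab34 on chromosome 11. In each pair other genes stood between the members, so the members formed no continuous block.

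The genes beside the members give a measure that the rule did not use. NOD was compared with B6 across all genes by edgeR's quasi-likelihood test, with Benjamini-Hochberg adjustment over 14456 genes, and genes past a 2-fold change with an adjusted p below 0.05 were called. The spread comes from the NOD libraries and is assumed for B6, and an exact permutation of 1 library against 2 cannot go below p = 0.333. Of the 14456 genes, 10.3% were called higher in NOD and 7.39% lower. All 57 members were tested and 57 were called higher, which the rule fixes and which is no result. Genes whose span overlaps a member were left out of the flanking genes. Those of them that were tested (C920021L13Rik, Scpep1, Sptssa and Cacna1h) were all called higher. The nearest other tested genes on either side of the members were 113 genes. Of these, 16 (14.2%) were called higher and 1 (0.885%) lower. Without the trended dispersion in the same test, 8 of the 113 (7.08%) were called higher and 3 (2.66%) lower, against 8.52% and 9.50% of all genes. DESeq2 called 27 flanking genes (23.9%) higher and 6 (5.31%) lower, against 16.4% and 13.1% of all genes. The flanking share called higher was thus above that of all genes in the first and last of these fits and below it in the middle one, and the share called lower was below that of all genes in each. These differences in share were not tested. With no filter on low counts edgeR called 0 genes, flanking or other, while 5568 genes had an unadjusted p under 0.05. In the flanking genes the median log2 fold change was 0.76, and it was 0.26 in all genes tested. Of the 113, 31 (27.4%) had 5 or fewer counts in B6 themselves, against 17.2% of all genes tested.

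At least 10 CPM in B6 was found for 51 of the 113 flanking genes (45.1%), a smaller share than the 58.5% of all genes tested. For 13 members both flanking genes reached this level, for 25 members 1 did, and for 19 members neither did. Nhlrc2, 0.039 kb from Dclre1a, had 451 counts in B6 and 833 and 578 in NOD. Skp2, beside Lmbrd2, had 505 counts in B6, and Elp2, beside Slc39a6, had 1090. Near Hddc3, Unc45a had 1077 counts in B6 and 1641 and 626 in NOD. Oaz3, beside Tdrkh, went the opposite way, with 20 counts in B6 and 0 in both NOD libraries, and did not pass. These 5 genes were chosen after their values were seen.

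Some flanking genes are relatives of the member beside them, by a reading of their names after the values were seen, and of these some were called higher and others were not. St6galnac6, a sialyltransferase 0.013 kb from St6galnac4, had 0 counts in B6 and 389 and 242 in NOD (adjusted p = 0.0250 from edgeR). Enpp3, beside Enpp1, had 3 counts in B6 and 323 and 788 in NOD (adjusted p = 0.0316), and both Enpp genes were higher in NOD 2 than in NOD 1. Bhmt, beside Bhmt2, had 1396 counts in B6 (112 CPM) and 280 and 212 CPM in NOD, a log2 fold change of 1.32 (adjusted p = 0.0444). Ifngr1, beside Il22ra2, had 6 counts in B6 and 1387 and 1040 in NOD (adjusted p = 0.0203). Relatives that were not called were Chrna5 and Chrnb4 beside Chrna3 (41 and 4 counts in B6), Zfp119a and Zfp119b beside Zfp959 (31 and 17 counts), Zfp317 and Zfp26 beside Zfp560 (619 and 209 counts), Fads2 beside Fads1 (0 counts) and Prl beside Prl3b1 (0 counts in B6 and 244 and 9 in NOD, adjusted p = 0.129 from edgeR).

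Slc25a31 was the only member with both flanking genes at under 1 CPM in B6 and called higher. Intu, a planar polarity effector, had 3 counts in B6 and 211 and 291 in NOD (adjusted p = 0.0387 from edgeR), and Hspa4l, a heat shock protein also known from testis, had 10 counts in B6 and 363 and 579 in NOD (adjusted p = 0.0349). All 3 genes were higher in NOD 2 than in NOD 1. Beside Mir1892, Eapp had 104 CPM in B6 and 533 and 596 CPM in NOD (adjusted p = 0.0196), and Egln3, an oxygen sensor, had 0 counts in B6 and 95 and 327 in NOD (adjusted p = 0.0427). With the host gene Sptssa (adjusted p = 0.0275), the genes around Mir1892 were all called higher.

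The other flanking genes called higher fall into 2 kinds. At 0 counts in B6 were Poln, a DNA polymerase beside Mxd4 (73 and 152 counts in NOD, edgeR adjusted p = 0.0484), and Tcf4, beside Ccdc68 (453 and 210 counts, 0.0283). Present in B6 were Blzf1 beside Ccdc181 (13.1 CPM in B6, 62.0 and 71.7 CPM in NOD, adjusted p = 0.0283) and Slc31a2 beside Zfp37 (1.52 CPM against 15.6 and 16.9 CPM, 0.0321). So were Capza2 beside St7 (156 CPM against 650 and 665 CPM, 0.0203), Tbrg1 beside Siae (447 CPM against 804 and 1104 CPM, 0.0480), Znhit3 beside Car4 (204 CPM against 696 and 658 CPM, 0.0212) and Tmem109 beside Vps37c (9.76 CPM against 64.8 and 62.8 CPM, 0.0242). The 1 flanking gene called lower was Snx30, 2285 kb from Zfp37, at 127 CPM in B6 and 40.9 and 42.3 CPM in NOD (adjusted p = 0.0431).

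**Figure D4:**
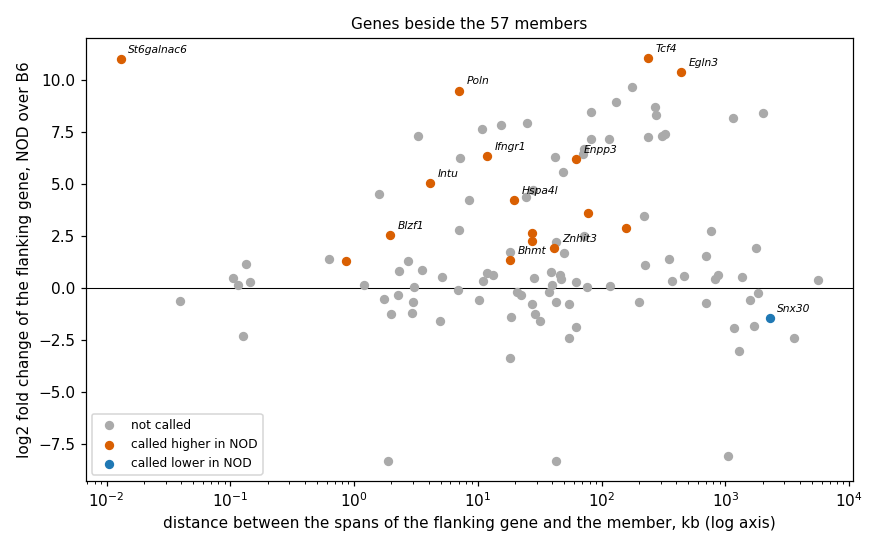
Log2 fold change of NOD over B6 (vertical axis) of the genes beside the members against the distance between the spans of the genes in kb (horizontal, log axis), 1 point per flanking gene and member, coloured by the edgeR call. Fitted values of genes at 0 in B6, such as St6galnac6 and Tcf4, depend on the prior count, and of the 113 flanking genes 16 are called higher and 1 (Snx30) lower.

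Promoter sequence was a second measure that the rule did not use. The 250 bases upstream of the RefSeq start were found for 45 of the 57 members in the RefSeq promoters of GRCm38.p6. The ratio of observed to expected CG had a median of 0.67 in the members, 0.78 in 5804 other genes at 10 CPM or more in both NOD libraries and 0.56 in all 17038 genes on chromosomes 1 to 19. In 29 of the genes high in B6 and absent in NOD it was 0.28. A ratio of at least 0.6 was found for 71.1% of the member promoters, 78.2% of the other NOD-expressed genes and 31.0% of the genes absent in NOD. In all genes on chromosomes 1 to 19 this share was 47.1%. The members thus lay nearer to other expressed genes than to the genes with the opposite pattern. By median and by share they lay between all genes and the other expressed genes.

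Within the members the ratio fell into a low and a high range. It was under 0.35 in 9 promoters (Tpsg1, Scpep1os, Prl3b1, Trim38, Slc39a2, BC028528, Sgms2, Lurap1l and 2410141K09Rik) and at least 0.53 in the other 36. Of the sequences shown above, Trim38 had a ratio of 0.16 and Slc39a2 of 0.21, and Mov10l1, Slc25a31 and Tdrkh had 0.75, 0.81 and 0.92. Tex101 had 0.64, and the 4 germline genes were in the high range, as were most members.

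**Figure D5:**
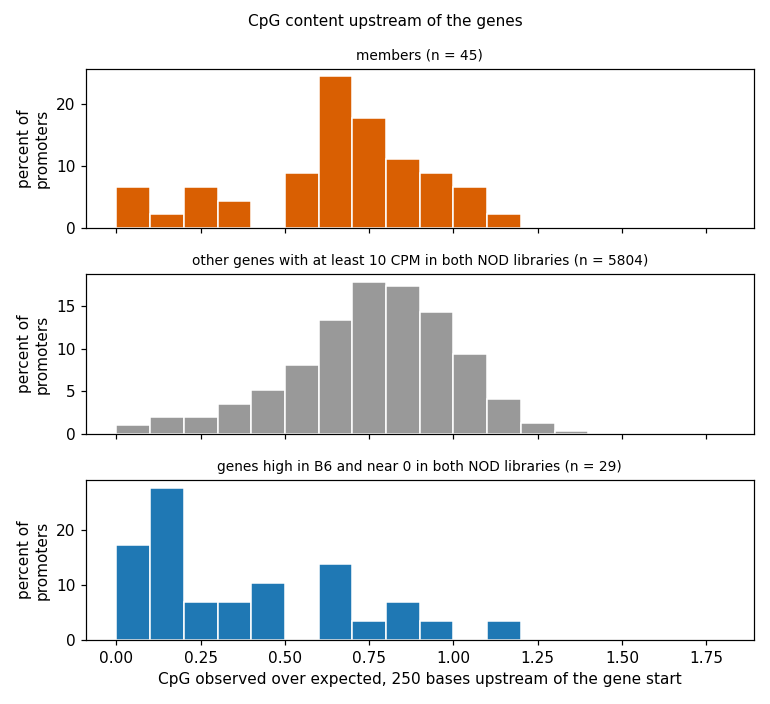
Share of promoters in percent (vertical axes, each with its own scale) by the ratio of observed to expected CG in the 250 bases upstream of the start (horizontal axis, in steps of 0.1). The members (n = 45) hold no promoter between 0.4 and 0.5, 9 lie below it, and most of the 29 genes high in B6 and absent in NOD lie under 0.5.

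Short motifs were searched on both strands of the same 250 bases. The E-box CACGTG was in 8.89% of member promoters (Mov10l1, Slc25a31, Mxd4 and B3gnt7) in 9.30% of the other NOD-expressed genes and in 6.86% of all promoters. The E2F core GCGGGA was in 15.6% (7 of 45) against 32.9%, and in 22.3% of all promoters. The TATA box TATAAA was in 11.1% against 5.38%, and in 12.03% of all promoters. The CCAAT box CCAAT was in 33.3% against 37.4% (35.8% of all) and the GC box GGGCGG in 57.8% against 64.0% (44.3% of all). With 45 promoters these shares rest on 4 to 26 genes, and a match of letters is not evidence of binding.

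Gene structure was known for each member. The median number of exons was 6 in the members and 9 in the other NOD-expressed genes, and 1 member (Mir1892) had a single exon. The shares of single-exon genes were 1.75% and 1.63%.

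Of 18 gene lists, 5 held a member. Among the other 18 cytokine receptor genes tested, beside Il22ra2, 5 (27.8%) were called higher (Ifngr1, Il10rb, Il1r1, Il2rg and Il6st), against 10.3% of all genes. Ifnar2 was the 1 called lower (5.56%, against 7.39% of all genes). The median log2 fold change of the 18 was 1.81 against 0.26 for all genes. Il1r1 (2.18 and 4.12 CPM in NOD) and Il6st (2.48 and 2.90 CPM) had 0 counts in B6, so their fitted fold changes depend on the prior count. Il2rg, the common gamma chain, had 4.08 CPM in B6 and 56.9 and 57.4 CPM in NOD (adjusted p = 0.0212 from edgeR). Of 266 other solute carrier genes, taken as any symbol starting with Slc, 37 (13.9%) were called higher and 17 (6.39%) lower. These shares were near the 10.3% and 7.39% of all genes. Of 338 other zinc finger genes, 17 (5.03%) were called higher and 13 (3.85%) lower. Of 141 other microRNA and small nucleolar RNA genes, 1 (0.709%) was called higher and 7 (4.96%) lower. Of 1078 other unnamed gene models, 74 (6.86%) were called higher and 63 (5.84%) lower. The unnamed members were 2410141K09Rik, 5830415F09Rik and Gm20337, the last with 1 count in B6 and 418 and 463 in NOD.

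The other 13 lists held no member. They include 27 interferon-stimulated genes (18 tested, 1 called higher and 1 lower), 23 genes of the totipotent 2-cell state (7 tested, 1 called higher) and 23 antigen presentation genes outside H2 (22 tested, 7 called higher and 0 lower). The antigen presentation share called higher was 31.8%, that of crystallins 27.3% (3 of 11) and that of interferon-stimulated genes 5.56%, against 10.3% of all genes. Of 179 ribosomal protein genes tested, 15 (8.38%) were called higher and 29 (16.2%) lower. That list was taken by symbol start (Rpl, Rps, Mrpl or Mrps), so it includes mitochondrial ribosomal proteins and any other gene with such a symbol. Of 43 histone genes 0 were called higher and 4 (9.30%) lower. Of all genes, 7.39% were called lower. These shares were not tested against all genes.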

How the data were processed

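Low-input RNA-Seq counts of 3 mouse blastocyst libraries (1 B6, 2 NOD, grouped by the strain in the labels) were analysed. The authors made cDNA with SMART-Seq V4 and 19 cycles of PCR, ran STAR (the labels and the methods name different versions) on the 50-base single-end reads against mm10 and counted these with HOMER on exons of 1 RefSeq transcript per gene, regardless of strand. Raw counts were deposited by the authors. How reads with several alignments were treated is not given in the sources used here.

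The 57 genes and the gene lists were chosen with earlier results of these data known, and functional groups and partners were assigned after values were seen. Values by library were given for the 15 highest members, those within 1 Mb of another, those in a list, those at the limits (3 inside and 3 outside), the 5 whose NOD libraries differed most, those sharing at least 50% of 50-base words in GENCODE M21, and flanking genes past the threshold. Other genes with values were named after these were seen.

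Genes were filtered by filterByExpr (minimum count 10), scaled by TMM and tested in edgeR 4.0.16 (R 4.3.3) by the quasi-likelihood test with trended dispersion. DESeq2 1.42.0 was an alternative. Intervals are Clopper-Pearson at 95%, from scipy 1.17.1. The labels name no separate mothers, so p-values measure the spread between these libraries. A floor of 3 counts was 0.240 CPM in B6, which had the fewest counts and set the precision.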

Additional observations from a re-analysis of the deposited data

How the results depend on the processing

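The number of members followed the limits of the rule. It was 22 with 0 counts in B6, 38 with at most 2 and 90 with at most 10, 145 at 5 CPM in NOD and 23 at 20 CPM, 62 with TMM effective library sizes, and from 84 (without NOD 1) to 105 (without NOD 2) when 1 NOD library was left out. Members with another within 1 Mb numbered 4, against 0 with 0 counts in B6, 2 with at most 2, 17 with at most 10, 37 at 5 CPM, 0 at 20 CPM and 21 without NOD 1 and 20 without NOD 2, with 0 within 200 kb and 12 within 5 Mb. Larger lists hold more close pairs by their construction. Of all genes, 1483 were called higher and 1069 lower. With no filter on low counts both numbers, and both of the flanking genes, were 0 in edgeR (5568 genes at an unadjusted p under 0.05). With DESeq2 they were 2365 and 1887, with 27 and 6 flanking genes. Without the trended dispersion, an alternative chosen after seeing the data, they were 1231 and 1373, with 8 flanking genes higher and 3 lower. The cause of these changes was not tested. With total counts only, 47.8% of calls were higher in NOD, against 58.1%, the median over all genes was 0.07 on the log2 scale in place of 0.26, and that of flanking genes was 0.57 in place of 0.76 (0.51 to 0.63 when 1 NOD library was left out). Calls higher in NOD outnumbered calls lower, except with total counts only (1037 against 1132), without the trended dispersion and with no filter, where both were 0. The medians given here stayed above 0, and the signs of single genes were not compared across settings. No paired analysis was possible because B6 has 1 library.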
